A study of Arabidopsis thaliana with 6 samples.

Results

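AGO1-bound small RNAs of ein5 dcl4 dcl2 triple mutants were compared with those of wild-type Col-0 plants of Arabidopsis thaliana. The comparison covered every locus of 1 deposited table, 32420 in all, and used 4 of the 6 libraries of the series: 2 from ein5 dcl4 dcl2 and 2 from Col-0. The other 2 libraries came from the ein5 dcl4 double mutant; their values are given only where named, but they entered the fit and so the estimate of the spread behind every adjusted p. All plants were 20 days old, with 6 days on MS medium followed by 14 days on soil, were untreated, and gave their aerial parts; the labels name the mutated genes but no alleles. Small RNAs were pulled down with an antibody against AGO1, so every value stands for reads of that pulldown assigned to a locus, not the level of that locus's mRNA. None of the 6 libraries is a control pulldown, so whether each read was bound to AGO1 was not tested. Binding to AGO1 and the abundance of a small RNA cannot be told apart in such libraries, nor can fewer cells with a small RNA and less of it per cell. A read was recovered at 17104 loci, and the 5389 loci with at least 10 reads over the 4 libraries were tested.

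AGO1 is the plant ARGONAUTE protein that carries most miRNAs and many siRNAs. DCL1 cuts miRNAs from hairpin precursors, while DCL4 and DCL2 cut siRNAs from long double-stranded RNA, DCL4 giving 21-nt and DCL2 22-nt products, and DCL4 also cuts a few young miRNA hairpins. EIN5, also called XRN4, is the cytoplasmic exonuclease that removes uncapped mRNA fragments, which can otherwise become templates for siRNAs. The comparison asks what still differs from wild type when both of these siRNA-making Dicers and this exonuclease are missing.

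The mature miRNAs on which the results turn are shown from RefSeq (assembly TAIR10.1), 5′ to 3′, with the seed (bases 2 to 8) in capitals; the table itself gives a value per locus and not which sequence was read. The sequences of the first group come from loci with the largest values and include miR165 and miR166, which share a seed.
miR166g: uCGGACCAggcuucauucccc
miR165b: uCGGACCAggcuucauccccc
miR159b-3p: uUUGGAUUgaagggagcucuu
The second group belongs to loci that were higher in ein5 dcl4 dcl2 under every scaling tried.
miR856: uAAUCCUAccaauaacuucagc
miR843: uUUAGGUCgagcuucauugga
miR845b: uCGCUCUGauaccaaauugaug
miR169m: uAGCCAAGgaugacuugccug
miR398a-3p: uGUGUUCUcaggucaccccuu
miR395b: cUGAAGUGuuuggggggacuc
miR861-3p: gAUGGAUAugucuucaaggac
The last group holds miR822, whose hairpin is a DCL4 substrate, and the miRNAs that start secondary siRNA production.
miR822-5p: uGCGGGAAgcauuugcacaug
miR173-5p: uUCGCUUGcagagagaaaucac
miR828: uCUUGCUUaaaugaguauucca
miR390a-5p: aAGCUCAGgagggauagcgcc
miR161.1: uGAAAGUGacuacaucggggu

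In ein5 dcl4 dcl2 nearly all AGO1-bound reads of the table lay at miRNA loci. Their share of the table total was 96.4% and 96.0% in the ein5 dcl4 dcl2 libraries, against 65.5% and 68.2% in the Col-0 libraries. Pseudogenes, most of them related to transposons, held 2.1% and 2.39% in ein5 dcl4 dcl2 and 17.9% and 16.6% in Col-0. Protein-coding genes held 1.35% and 1.54% in ein5 dcl4 dcl2 and 15.9% and 14.6% in Col-0. In none of these classes did the libraries of the genotypes overlap, and the means differed by more than the spread between libraries (96.2% ± 0.347 in ein5 dcl4 dcl2 and 66.9% ± 1.9 in Col-0 for miRNA loci, SD, n = 2 each). The exact two-sided permutation p was 0.33 for each class, the smallest that 2 libraries against 2 can give. With the 10 largest loci left out the mean miRNA share was 76.1% in ein5 dcl4 dcl2 and 23.2% in Col-0. With every locus left out that has over 20% of its 21-mers elsewhere in the genome it was 98.3% in ein5 dcl4 dcl2 and 88.0% in Col-0, while pseudogenes held 0.649% in ein5 dcl4 dcl2 and 5.79% in Col-0.

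**Figure D1:**
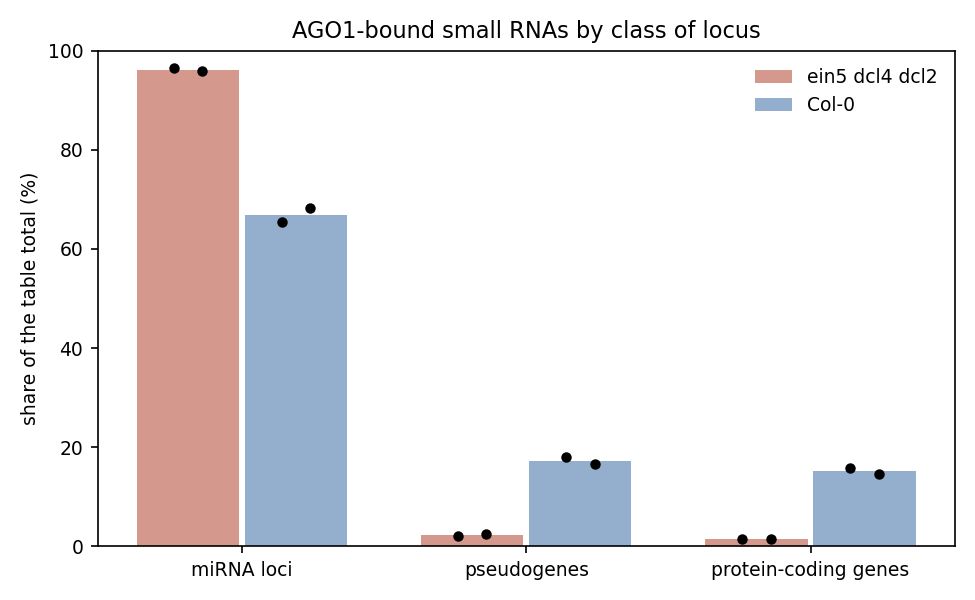
Share of the table total (%) held by miRNA loci, pseudogenes and protein-coding genes in ein5 dcl4 dcl2 and Col-0; bars are means of 2 libraries and dots are the libraries. The miRNA bar is at 96.2% in ein5 dcl4 dcl2 and 66.9% in Col-0, and the other classes are lower in ein5 dcl4 dcl2.

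The direction of a locus depended on how the libraries were scaled. The deposited units name TPM in the file header, but the columns sum to 1743399 in ein5 dcl4 dcl2 and 235535 in Col-0. The median log2 difference (ein5 dcl4 dcl2 minus Col-0) over all loci tested was 0.01 on the deposited scale and 0.22 after trimmed-mean rescaling, but -2.23 with table totals set equal and -1.93 with miRNA totals set equal. The first pair thus sets a locus near the median of all loci tested, and the second pair gives it as a part of the table total or relative to the miRNAs. On the deposited scale 218 loci were higher, which was 4.05% of those tested, and 148 were lower, 2.75% (limma, Benjamini-Hochberg adjusted p under 0.05). A fit of the 4 compared libraries alone called 360 higher and 404 lower. After trimmed-mean rescaling 247 were higher (4.58%) and 97 lower (1.80%). With equal table totals 62 were higher (1.15%) and 3793 lower (70.4%), and with equal miRNA totals 13 were higher (0.241%) and 2716 lower (50.4%). In all 4 scalings 13 loci were higher (0.241%) and 97 were lower (1.80%), and these are the calls that do not rest on the scale. Of the 97 lower loci 68 had 0 reads in either ein5 dcl4 dcl2 library, and 49 of these had a Col-0 mean below 5.41 units, the value of 3 reads in ein5 dcl4 dcl2 that a count of 0 allows. That limit holds in deposited units only: as a share of the table total 3 reads were 0.000272% and 0.000356% in ein5 dcl4 dcl2 and 0.000246% and 0.000313% in Col-0. Without Col-0 library a or b, 55 and 46 loci were higher on the deposited scale, and 3 and 4 in all 4 scalings, while 155 and 154 were lower on the deposited scale and 150 and 151 in all 4. With either Col-0 library left out, many of the named loci called on the deposited scale lost their call. The 81 named loci tested also include loci that had no call to lose.

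Taken as plain ratios of the 2 deposited mean columns, 4918 tested loci were above 0 in both, with a median log2 ratio of 0.37. At 1716 of them the ein5 dcl4 dcl2 mean was 2 or more times the Col-0 mean, and at 574 the ratio went as far in the other direction. Loci with a 0 in a column are left out here. Since 463 tested loci had 0 reads in both ein5 dcl4 dcl2 libraries, the median and these counts leave out much of the lower side.

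**Figure D2:**
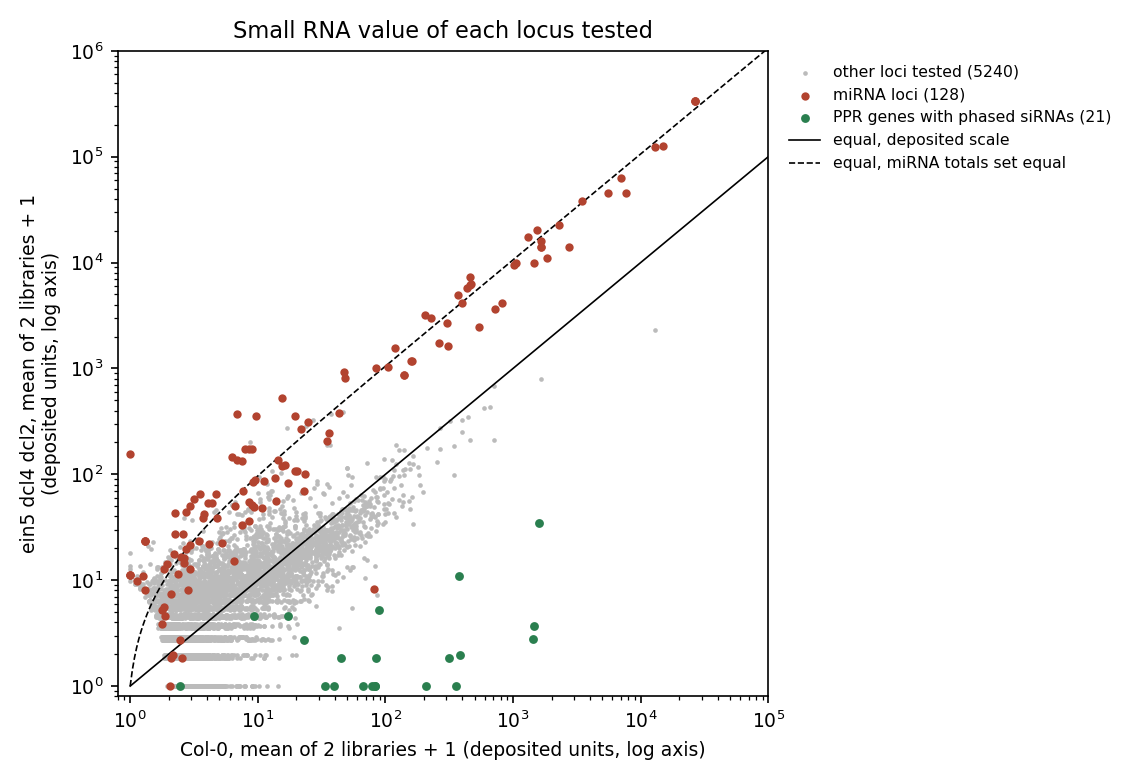
Mean value + 1 of each of the 5389 loci tested, ein5 dcl4 dcl2 on the vertical and Col-0 on the horizontal axis, both in deposited units on log axes; the solid line marks equal deposited values and the dashed line equal shares of the miRNA total. Most of the 128 miRNA loci (red) lie along the dashed line, other loci (grey) around the solid line, and PPR genes (green) far below both.

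Of 178 miRNA loci 152 had a read and 128 were tested. On the deposited scale 88 were higher in ein5 dcl4 dcl2, beside 4.05% of all loci tested, 1 was lower and 39 were not called, with a median log2 difference of 3.08 beside 0.01 over all loci tested. After trimmed-mean rescaling 91 were higher and 1 lower, with equal table totals 39 and 8, and with equal miRNA totals 9 and 15. Calls followed depth: 47 of 50 miRNA loci with 500 reads or more were higher on the deposited scale, against 9 of 32 with 10 to 49 reads. Loci with any annotated 22-nt mature sequence, the length known to start secondary siRNAs, had a median of 3.12 (19 of 24 higher). Those with 21-nt sequences only had a median of 3.14 (60 of 88 higher). At some loci of the first group, such as MIR403 and MIR162a, the 22-nt sequence stands beside a 21-nt one. That group is thus not a set of 22-nt triggers, and which sequence was read is not known. Families conserved between flowering plants had a median of 3.10 over 80 tested loci (59 higher, 0 lower) and the other families 3.04 over 48 (29 higher, 1 lower).

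**Figure D3:**
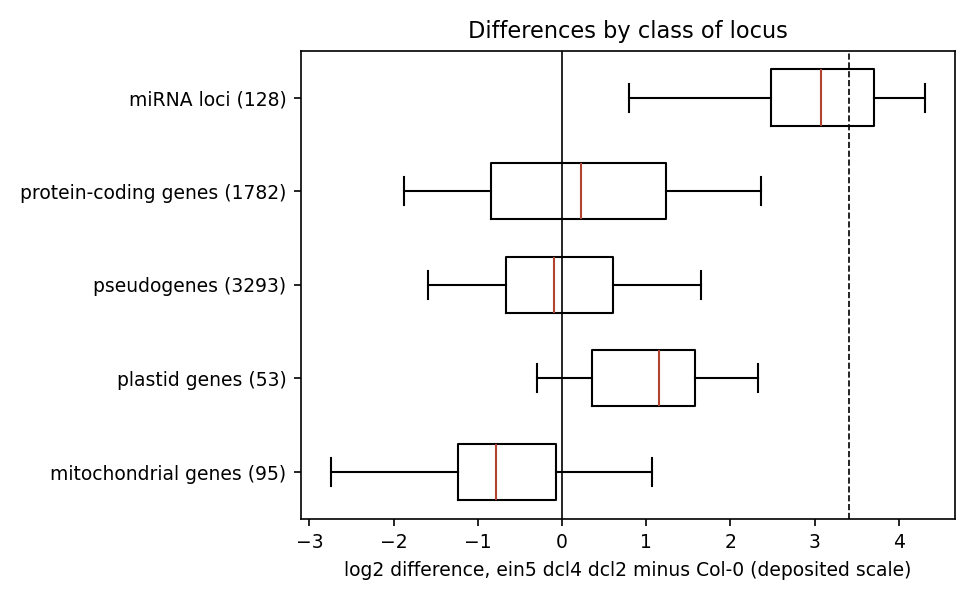
Log2 difference, ein5 dcl4 dcl2 minus Col-0, on the deposited scale for the tested loci of each class (number in brackets); boxes span the quartiles, red lines are medians and whiskers reach the 5th and 95th percentile. The solid line marks no difference and the dashed line the ratio of the miRNA totals, at 3.41; miRNA loci have their median at 3.08, protein-coding genes at 0.23 and mitochondrial genes at -0.78.

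The largest loci of both genotypes were those of miR165 and miR166, which repress the HD-ZIP III genes of leaf polarity. MIR166g had 218066 and 156582 reads in ein5 dcl4 dcl2, against 133074 and 112495 in Col-0, and MIR166e and MIR166f, which share its mature sequence, had nearly the same reads. In deposited units MIR166g was 335021 ± 53041 in ein5 dcl4 dcl2 and 26754 ± 2990 in Col-0 (SD, n = 2 each), a log2 difference of 3.64 (95% interval 2.90 to 4.39, limma adjusted p 0.00265), which was 0.23 at equal miRNA totals (0.522). The deposited-scale call was lost when Col-0 library a (0.126) or b (0.123) was left out. As a part of the miRNA total the family took 73.5% and 69.3% in ein5 dcl4 dcl2 and 62.7% and 65.3% in Col-0. The nearly equal reads of MIR166e, MIR166f and MIR166g each entered the family sum and the miRNA total. The same read can thus count several times in this share, and in the other family shares below where loci share a sequence. MIR159b, from the family that represses MYB33 and MYB65, had 74887 and 66100 reads in ein5 dcl4 dcl2 and 76045 and 62485 in Col-0. Its family took 7.77% ± 0.812 of the miRNA total in ein5 dcl4 dcl2 and 9.76% ± 0.0249 in Col-0. The miR319 family, which represses TCP genes, took 4.01% ± 1.02 in ein5 dcl4 dcl2 and 6.16% ± 0.435 in Col-0. The miR168 family, the regulator of AGO1 itself, took 2.27% ± 0.269 in ein5 dcl4 dcl2 and 1.80% ± 0.0765 in Col-0. The shares of miR403, miR162, miR396 and miR393 overlapped between genotypes. Over the 18 families compared no exact two-sided permutation p could fall below 0.33, and none was below 0.429 when adjusted over the 18.

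In all 4 scalings 9 miRNA loci were higher in ein5 dcl4 dcl2, so also relative to the miRNA total. MIR856 stood apart, with 98 and 75 reads in ein5 dcl4 dcl2 and none in either Col-0 library. In deposited units its 155 ± 17.6 in ein5 dcl4 dcl2 (SD, n = 2) were at least 234-fold higher than the 0.663 units that a count of 0 allows over the Col-0 group, and the log2 difference was 7.28 on the deposited scale and 4.84 at equal miRNA totals (limma adjusted p 0.00168 and 0.00129). MIR843 had 237 and 173 reads in ein5 dcl4 dcl2 and 33 and 22 in Col-0. Per 1000000 of the miRNA total these were 223 and 214 in ein5 dcl4 dcl2, against 41.4 and 33.7 in Col-0, with a log2 difference of 2.44 at equal miRNA totals and 5.73 on the deposited scale (limma adjusted p 0.00884 and 0.00342), the second of which missed the threshold when Col-0 library a (0.0813) or b (0.0866) was left out. MIR845b, a miRNA that targets retrotransposon primer binding sites in pollen, had 195 and 199 reads in ein5 dcl4 dcl2 and 57 and 26 in Col-0. It came to 183 and 246 per 1000000 of the miRNA total in ein5 dcl4 dcl2, against 71.4 and 39.8 in Col-0.

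MIR169m, from the family that targets NF-YA transcription factors, had 324 and 257 reads in ein5 dcl4 dcl2, against 91 and 48 in Col-0, although 28.6% of its 21-mers occur elsewhere in the genome. MIR861 had 95 and 96 reads in ein5 dcl4 dcl2, against 45 and 30 in Col-0. At equal miRNA totals the log2 differences were 1.73 for MIR169m and 0.97 for MIR861 (limma adjusted p 0.0225 and 0.0320). Per 1000000 of the miRNA total MIR169m was at 305 and 318 in ein5 dcl4 dcl2 and at 114 and 73.5 in Col-0, and MIR861 at 89.3 and 119 in ein5 dcl4 dcl2 and at 56.4 and 45.9 in Col-0, with no overlap.

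The remaining members of this group respond to nutrient supply. MIR395b, MIR395c and MIR395f, sulfate-responsive loci with 1 mature sequence, had the same 15 and 10 reads in ein5 dcl4 dcl2 and 2 and 1 in Col-0 at each locus. On the deposited scale their log2 difference was 4.14 (95% interval 2.87 to 5.40, limma adjusted p 0.0113), a call lost when Col-0 library a (0.109) or b (0.123) was left out. All 6 sulfate miRNA loci listed were tested. On the deposited scale 3 were higher, beside 88 of 128 miRNA loci tested, with a median of 3.73 beside 3.08. With equal table totals all 6 were higher, beside 39 of 128 miRNA loci. MIR395a, MIR395d and MIR395e also share 1 mature sequence, so the 6 loci are not independent of each other. MIR395a had 3 and 8 reads in ein5 dcl4 dcl2 and 0 in each Col-0 library and was not called on the deposited scale (limma adjusted p 0.176), but was higher with equal table totals (log2 difference 2.64, limma adjusted p 0.0263). MIR398a, copper-responsive and directed at superoxide dismutase mRNAs, had 36 and 28 reads in ein5 dcl4 dcl2 and 8 and 11 in Col-0, with a log2 difference of 4.24 on the deposited scale and 1.19 at equal miRNA totals (limma adjusted p 0.00284 and 0.0407). On the deposited scale MIR398a was the only one called of 3 copper miRNA loci tested of 7 listed, beside 88 of 128 miRNA loci called higher. MIR398c had 13 and 12 reads in ein5 dcl4 dcl2 and 24 and 2 in Col-0, and MIR857 had 1 and 0 in ein5 dcl4 dcl2 and 11 and 4 in Col-0; neither was called on the deposited scale, and MIR857 was lower at equal miRNA totals (log2 difference -1.75, limma adjusted p 0.0105). Of 9 phosphate miRNA loci listed, 3 were tested and were higher on the deposited scale, beside 88 of 128 miRNA loci and 4.05% of all loci tested. MIR399c, which targets the phosphate regulator PHO2, had 109 and 53 reads in ein5 dcl4 dcl2 and 46 and 8 in Col-0, MIR827 had 13 and 16 in ein5 dcl4 dcl2 and 8 and 4 in Col-0, and MIR399b had 6 and 5 in ein5 dcl4 dcl2 and 0 and 2 in Col-0. All 3 passed at equal table totals (limma adjusted p 0.0248, 0.0468 and 0.0196), beside 39 of 128 miRNA loci higher. None passed at equal miRNA totals (limma adjusted p 0.161, 0.222 and 0.0576), beside 9 of 128. On the deposited scale MIR827 and MIR399b lost their calls with either Col-0 library left out, and MIR399c with Col-0 library b or either ein5 dcl4 dcl2 library left out (limma adjusted p 0.0546 to 0.162).

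**Figure D4:**
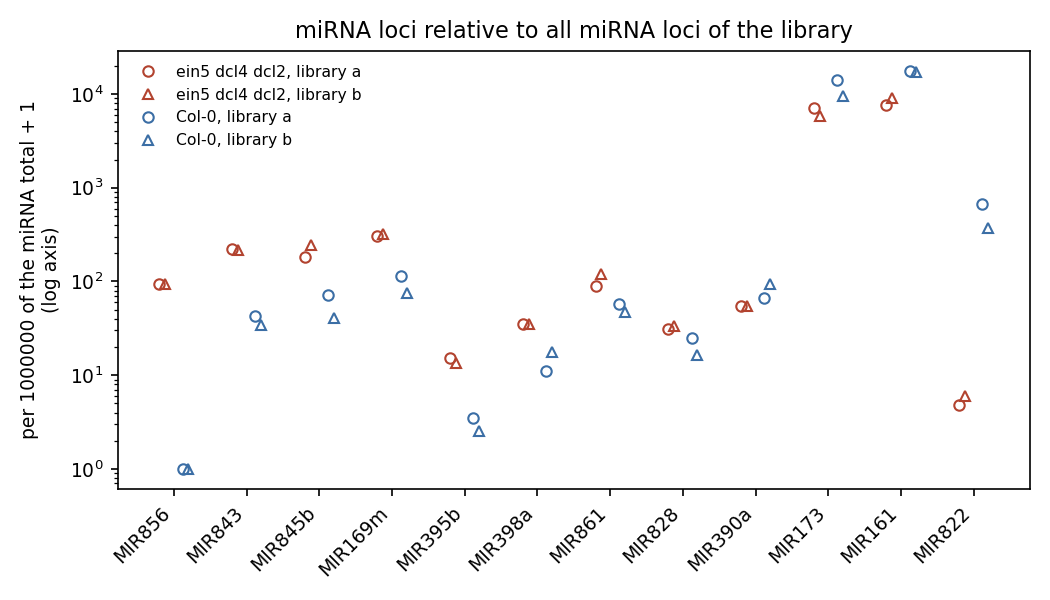
Value + 1 per 1000000 of the library's miRNA total (log axis) of 12 miRNA loci, with the ein5 dcl4 dcl2 libraries in red to the left of the Col-0 libraries in blue. MIR856 is at 92.1 and 92.7 in ein5 dcl4 dcl2 and at 0 in Col-0, and MIR822 is at 3.76 and 4.94 in ein5 dcl4 dcl2 and at 672 and 371 in Col-0.

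MIR822 was the only miRNA locus called lower on the deposited scale. Its long hairpin is processed by DCL4, and it had 4 reads in each ein5 dcl4 dcl2 library, against 536 and 242 in Col-0. In deposited units it was 7.22 ± 0.542 in ein5 dcl4 dcl2 and 80.7 ± 26.3 in Col-0 (SD, n = 2 each), an 11.2-fold lower mean. The log2 difference was -3.28 (95% interval -4.30 to -2.25, limma adjusted p 0.0122), and -6.03 relative to the miRNA total, but with Col-0 library a or b left out the deposited-scale p was 0.164 and 0.106. The locus overlaps a neighbouring gene. In ein5 dcl4 it had no read in either library. All miRNA loci together held only 47748 and 40183 reads there, against 1063807 and 809305 in ein5 dcl4 dcl2. A count of 0 in ein5 dcl4 therefore cannot show whether MIR822 differed between the mutants. The other listed hairpins attributed to DCL4 were not lower. MIR869 had 32 and 39 reads in ein5 dcl4 dcl2 and 23 and 12 in Col-0, with a log2 difference of 3.80 on the deposited scale (limma adjusted p 0.00517) and 0.65 at equal miRNA totals (0.269). MIR839 had 12 and 11 reads in ein5 dcl4 dcl2 and 14 and 5 in Col-0, and was not called in any scaling.

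The miRNAs that start trans-acting siRNA (tasiRNA) production were present in ein5 dcl4 dcl2. MIR173, whose 22-nt product cuts the TAS1 and TAS2 transcripts, had 7626 and 4726 reads in ein5 dcl4 dcl2 and 11253 and 6223 in Col-0. MIR390a and MIR390b, which act on TAS3, had 57 and 44 and 53 and 43 reads in ein5 dcl4 dcl2, against 53 and 60 and 49 and 44 in Col-0. MIR828, which acts on TAS4 and on MYB transcripts, had 32 and 26 reads in ein5 dcl4 dcl2 and 19 and 10 in Col-0. All 4 were higher on the deposited scale, as were 88 of 128 miRNA loci and 4.05% of all loci tested. Their log2 differences were 2.57 to 3.72, beside a median of 3.08 over the miRNA loci tested. At equal miRNA totals MIR173 was lower by a log2 difference of -0.84 (limma adjusted p 0.0408). There MIR390a and MIR390b stood at -0.51 and -0.30 and MIR828 at 0.61, none of the last 3 called. MIR161, whose products cut PPR transcripts, had 8152 and 7400 reads in ein5 dcl4 dcl2 and 14146 and 11198 in Col-0. It was higher on the deposited scale (log2 difference 2.35, limma adjusted p 0.00415) and lower at equal miRNA totals (-1.06, limma adjusted p 0.0370). The deposited-scale calls of MIR173 and MIR161 were lost with either Col-0 library left out (limma adjusted p 0.0837 to 0.132). The TAS loci themselves are not analysed here.

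Reads at the mRNAs that tasiRNAs target were few in ein5 dcl4 dcl2. Over the 9 listed target genes they summed to 7 in each ein5 dcl4 dcl2 library, against 135 and 113 in Col-0, or 0.000635% and 0.000830% of the table total in ein5 dcl4 dcl2 and 0.0111% and 0.0118% in Col-0. ARF4, an auxin response factor targeted by TAS3 siRNAs, had 2 and 1 reads in ein5 dcl4 dcl2 and 50 and 57 in Col-0. ARF2 had 0 and 1 reads in ein5 dcl4 dcl2 and 26 and 14 in Col-0, ARF3 had 2 and 0 in ein5 dcl4 dcl2 and 20 and 10 in Col-0, and MYB113, a target of TAS4 siRNAs, had 2 and 5 in ein5 dcl4 dcl2 and 28 in each Col-0 library. None of the 5 members tested was called on the deposited scale (median -0.96). All 5 were lower with equal table totals, beside 70.4% of all loci tested, and with equal miRNA totals 4 were, beside 50.4%.

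The strongest losses lay at pentatricopeptide repeat (PPR) genes, which encode organelle RNA-binding proteins and whose transcripts, once cut by miR161, miR400 or tasiRNAs, are known to give phased siRNAs through DCL4. Of 22 genes listed 21 were tested, and 18 were lower on the deposited scale, beside 2.75% of all loci tested. None was higher, 3 were not called, and 16 were lower in all 4 scalings. The median log2 difference was -5.67, and 9 members had 0 reads in either ein5 dcl4 dcl2 library. Without Col-0 library a or b, 9 of the 21 were called lower in each case, AT1G62914 and AT1G63400 among them. Over the list, reads summed to 44 and 29 in ein5 dcl4 dcl2, against 37241 and 25811 in Col-0, or 0.00371% ± 0.000389 of the table total in ein5 dcl4 dcl2 and 2.88% ± 0.255 in Col-0 (SD, n = 2 each).

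AT1G62914 had 1 read in each ein5 dcl4 dcl2 library, against 7662 and 5634 in Col-0, and AT1G63400 had 2 and 1 reads in ein5 dcl4 dcl2 and 7782 and 5786 in Col-0. In deposited units AT1G62914 was 794-fold lower, with a 95% counting interval of 220 to 6556, and AT1G63400 was 550-fold lower, with an interval of 188 to 2669. Their log2 differences of -9.00 and -8.68 were the largest decreases of the comparison (limma adjusted p 0.000584 for both). AT1G62910 had 0 reads in either ein5 dcl4 dcl2 library, against 2090 and 1287 in Col-0, which in deposited units is at least 66.3-fold lower against the value of 3 reads over the ein5 dcl4 dcl2 group. AT1G63150 had 0 reads in ein5 dcl4 dcl2 and 1213 and 743 in Col-0, at least 38.4-fold lower. AT1G63070, AT1G62590, AT1G63330 and AT1G12775 also had 0 reads in either ein5 dcl4 dcl2 library, against 263 to 481 in each Col-0 library, at least 12.1-fold to 15.2-fold lower. AT1G63130 had 0 and 1 reads in ein5 dcl4 dcl2 and 2141 and 1429 in Col-0, and AT1G62930, annotated as RPF3, had 1 and 0 in ein5 dcl4 dcl2 and 1781 and 1149 in Col-0. These 10 PPR genes were the 10 largest decreases among all loci lower in every scaling.

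The gene with the most reads of the list kept a low signal in ein5 dcl4 dcl2. AT1G63080 had 22 and 16 reads in ein5 dcl4 dcl2 and 8513 and 6233 in Col-0, with 34.0 ± 5.08 units in ein5 dcl4 dcl2 and 1588 ± 16.4 in Col-0 (SD, n = 2 each), 46.7-fold lower. AT1G63630 had 5 and 6 reads in ein5 dcl4 dcl2 and 2490 and 1124 in Col-0. The mutants are compared with each other on the deposited scale only, and the other scalings can give another result. In ein5 dcl4, AT1G63080 had 21 and 18 reads, and no difference between the mutants was called on that scale (log2 difference -0.40, limma adjusted p 0.220). AT1G62914 had 11 and 17 reads in ein5 dcl4 and AT1G63400 had 16 and 21. On the deposited scale both were lower in ein5 dcl4 dcl2 than in ein5 dcl4 (limma adjusted p 0.00294 and 0.00242). So were 13 of the 21 PPR genes, beside 562 of all loci tested (10.4%). Of the 21 tested genes 17 have more than 20% of their exonic 21-mers elsewhere in the genome, so a read counted at 1 member can come from another. With those loci left out, 3 of the 4 remaining PPR genes were lower.

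**Figure D5:**
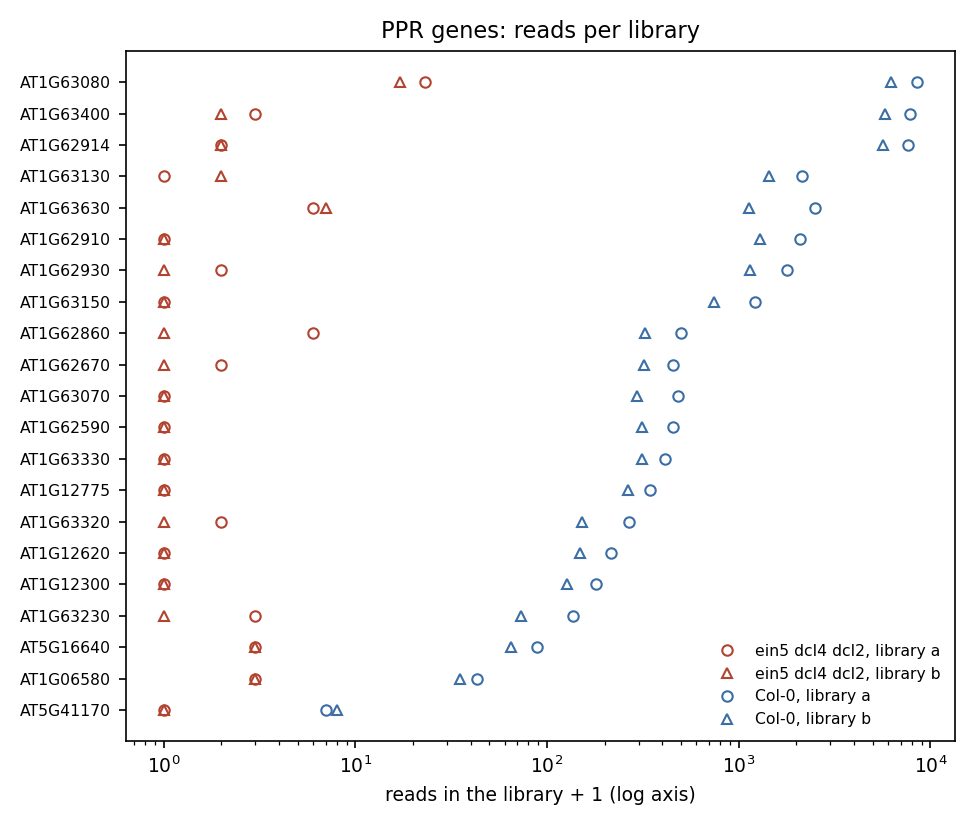
Reads + 1 per library (log axis) at the 21 PPR genes tested, ein5 dcl4 dcl2 in red and Col-0 in blue, sorted by the Col-0 mean. AT1G63080 has 22 and 16 reads in ein5 dcl4 dcl2 and 8513 and 6233 in Col-0. In every gene shown the ein5 dcl4 dcl2 libraries lie below the Col-0 libraries. In deposited units this also holds for all 21, beside 1479 of 5389 loci tested. Reads of all protein-coding genes summed to 14879 and 12960 in ein5 dcl4 dcl2 and 193176 and 139407 in Col-0.

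Other genes that give phased siRNAs held a signal near that of the typical locus on the deposited scale. Of 10 tested, 1 was higher and 1 lower on the deposited scale, beside 4.05% and 2.75% of all loci tested, with a median of -0.13. AT5G38850, a disease resistance gene of the TIR-NBS-LRR type, had 422 and 343 reads in ein5 dcl4 dcl2 and 4028 and 2648 in Col-0. In deposited units it was 686 ± 48.9 in ein5 dcl4 dcl2 and 713 ± 46.9 in Col-0, a log2 difference of -0.05 with a 95% interval of -0.45 to 0.34 (limma adjusted p 0.881). AT5G43740 and AT5G43730, disease resistance genes of the CC-NBS-LRR type cut by miR472, had 77 and 49 and 26 and 16 reads in ein5 dcl4 dcl2, against 793 and 629 and 220 and 171 in Col-0, with log2 differences of -0.47 and -0.20, neither called. More than 20% of the 21-mers of both occur elsewhere. AFB3, an auxin receptor gene cut by miR393, had 56 and 48 reads in ein5 dcl4 dcl2 and 387 and 140 in Col-0 and was not called. AT3G23690, a bHLH gene targeted by miR393, was the member called lower, in all 4 scalings, with 5 and 4 reads in ein5 dcl4 dcl2 and 143 and 119 in Col-0, and AFB2 was the member called higher, with 49 and 35 reads in ein5 dcl4 dcl2 and 170 and 152 in Col-0. With equal table totals or equal miRNA totals all 10 were lower, beside 70.4% and 50.4% of all loci tested.

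The loci at which the study followed DCL2-made siRNAs held few reads. NIA1 and NIA2, the nitrate reductase genes, had 24 and 49 and 30 and 72 reads in ein5 dcl4 dcl2, against 52 and 14 and 66 and 24 in Col-0. The reads of the genotypes overlapped, but in deposited units NIA1 was 67.1 ± 36.8 in ein5 dcl4 dcl2 and 6.61 ± 4.27 in Col-0, and NIA2 94.0 ± 60.5 in ein5 dcl4 dcl2 and 9.19 ± 4.29 in Col-0 (SD, n = 2 each). Both were called higher on the deposited scale, with log2 differences of 3.17 and 3.12 (limma adjusted p 0.0271 for both), and stood at -0.02 and -0.12 at equal miRNA totals (0.979 and 0.860). Neither call held without Col-0 library a, Col-0 library b or ein5 dcl4 dcl2 library b (adjusted p 0.0605 to 0.261). In ein5 dcl4 they had 288403 and 182574 reads for NIA1 and 334024 and 212915 for NIA2. In deposited units ein5 dcl4 dcl2 was lower by 13.04 and 12.83 on the log2 scale (limma adjusted p 6.4e-05 for both). SMXL4 had 1 and 0 reads in ein5 dcl4 dcl2 and 2 and 6 in Col-0, and SMXL5 had 1 and 2 reads in each genotype's libraries, too few to be tested. These 4 loci were chosen by the study on these samples. At the mutated genes, EIN5 had 0 reads in either ein5 dcl4 dcl2 library, against 26 and 5 in Col-0, DCL4 had 4 and 2 in ein5 dcl4 dcl2 and 0 and 4 in Col-0, and DCL2 had 0 in ein5 dcl4 dcl2 and 1 and 0 in Col-0. Neither EIN5 nor DCL4 was called (limma adjusted p 0.211 and 0.149), and reads of small RNAs do not check whether the mRNA was lost.

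Among miRNA target mRNAs 17 of 50 were tested, with 1 higher, beside 4.05% of all loci tested, 0 lower and a median of -0.49 on the deposited scale. With equal table totals 15 of the 17 were lower and with equal miRNA totals 14, beside 70.4% and 50.4% of all loci tested, and none was higher. The higher member was AGO2, the target of miR403 and an antiviral ARGONAUTE, with 39 and 27 reads in ein5 dcl4 dcl2 and 78 and 68 in Col-0, a log2 difference of 1.82 on the deposited scale (limma adjusted p 0.0210) that became -1.44 at equal miRNA totals (0.0116); the deposited-scale call was lost without Col-0 library a or b, or ein5 dcl4 dcl2 library a (limma adjusted p 0.167, 0.134 and 0.0633). AGO1, the target of miR168, had 4 and 11 reads in ein5 dcl4 dcl2 and 72 and 60 in Col-0. DCL1, the target of miR162, had 2 and 5 reads in ein5 dcl4 dcl2 and 85 and 54 in Col-0, and SCL27, a target of miR171, had 5 and 2 in ein5 dcl4 dcl2 and 37 and 27 in Col-0. None of these 3 was called on the deposited scale, and all 3 were lower at equal miRNA totals (limma adjusted p 0.0149, 0.00179 and 0.00493). Of 7 silencing and decay genes tested 1 was higher on the deposited scale, AGO2 again, and 0 lower, while 6 were lower with equal table totals and 5 with equal miRNA totals, against the same shares of all loci.

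Nuclear photosynthesis genes had low values in both genotypes, and all 17 listed were tested. In deposited units 6 were higher, beside 4.05% of all loci tested, and 0 lower, with a median of 1.26. CAB1, a chlorophyll-binding protein gene, had 17 and 13 reads in ein5 dcl4 dcl2 and 38 and 41 in Col-0, and CAB2 and CAB3 had 9 and 11 and 8 and 9 in ein5 dcl4 dcl2, against 30 and 16 and 31 and 23 in Col-0. RBCS1A, a gene of the small Rubisco subunit, had 17 and 12 reads in ein5 dcl4 dcl2 and 45 and 51 in Col-0 and was not called. CAB1, CAB2 and CAB3 were called higher (limma adjusted p 0.0390, 0.0319 and 0.0496), but none of the 3 with either Col-0 library or ein5 dcl4 dcl2 library b left out, nor CAB1 with ein5 dcl4 dcl2 library a left out. With equal table totals 0 of the 17 were higher and 4 lower, and with equal miRNA totals 0 were higher and 5 lower, beside 70.4% and 50.4% of all loci tested that were lower. More than 40% of the 21-mers of CAB1, CAB2 and CAB3 are repeated elsewhere.

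Plastid and mitochondrial loci differed in their medians. Of 53 plastid loci tested 3 were higher on the deposited scale, a share near the 4.05% of all loci tested, 0 were lower, and the median was 1.16. None was higher with equal table or miRNA totals. There 21 and 13 of the 53 were lower, beside 70.4% and 50.4% of all loci tested. The medians were -1.30 and -1.20, beside -2.23 and -1.93 over all loci tested. ATCG00020 had 243 and 188 reads in ein5 dcl4 dcl2 and 238 and 180 in Col-0, with a log2 difference of 3.07 (limma adjusted p 0.00231) that became -0.31 at equal miRNA totals. ATCG00490 and ATCG00350 were the other loci called higher, with 139 and 73 and 28 and 23 reads in ein5 dcl4 dcl2, against 192 and 138 and 33 and 34 in Col-0; both calls were lost with any 1 of the 4 libraries left out (adjusted p 0.0546 to 0.321). Of 95 mitochondrial loci tested 0 were higher on the deposited scale, 4 were lower, a share near the 2.75% of all loci tested, 2 of them in all 4 scalings, and the median was -0.78. With equal table totals 86 of the 95 were lower and with equal miRNA totals 62, beside 70.4% and 50.4% of all loci tested. ATMG00560 had 22 and 15 reads in ein5 dcl4 dcl2 and 482 and 390 in Col-0, with a log2 difference of -1.50 (95% interval -2.08 to -0.93, limma adjusted p 0.0240). ATMG01090 had 10 and 4 reads in ein5 dcl4 dcl2 and 286 and 219 in Col-0, with a log2 difference of -2.16; both calls were lost with either Col-0 library left out (limma adjusted p 0.118 to 0.274), and that of ATMG01090 also after trimmed-mean rescaling. The mitochondrial share of the table total was 0.0354% ± 0.000574 in ein5 dcl4 dcl2 and 0.449% ± 0.0272 in Col-0, and the plastid share 0.0613% ± 0.000288 in ein5 dcl4 dcl2 and 0.111% ± 0.00419 in Col-0 (SD, n = 2 each). Without the 10 largest loci of the table the plastid share turned round, at 0.387% in ein5 dcl4 dcl2 and 0.258% in Col-0, while the mitochondrial share was 0.224% in ein5 dcl4 dcl2 and 1.04% in Col-0.

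The largest locus that is no miRNA was AT3G06435, a protein-coding locus with 69.2% repeated 21-mers. It had 1413 and 1155 reads in ein5 dcl4 dcl2, against 70590 and 49692 in Col-0, and held 0.128% and 0.137% of the table total in ein5 dcl4 dcl2 and 5.80% and 5.19% in Col-0. The log2 difference was -2.49 (95% interval -2.92 to -2.06, limma adjusted p 0.00174), and it was lower in all 4 scalings. On the deposited scale it was lower than in ein5 dcl4 as well (log2 difference -2.45, limma adjusted p 0.000561). AT3G44570, the next largest, had 450 and 427 reads in ein5 dcl4 dcl2 and 8600 and 6747 in Col-0, with a log2 difference of -1.07 (limma adjusted p 0.0428) that was not called with any 1 of the 4 libraries left out (adjusted p 0.0964 to 0.278), nor after trimmed-mean rescaling. Of 1782 protein-coding genes tested 96 were higher and 67 lower on the deposited scale, beside 4.05% and 2.75% of all loci tested, and 2 and 44 in all 4 scalings. Of the 96 higher genes 31 had fewer than 20 reads over the 4 libraries. Of the 67 lower genes 41 had 0 reads in either ein5 dcl4 dcl2 library, and for 25 of these the Col-0 mean in deposited units was below the limit that such a count allows.

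Pseudogenes spread around the median of all loci. Of 3293 tested 30 were higher and 76 lower on the deposited scale, beside the same shares of all loci, with a median of -0.10, and 2 and 50 were called in all 4 scalings. AT3G30110 was the pseudogene with the largest increase, with 123 and 103 reads in ein5 dcl4 dcl2 and 35 in each Col-0 library, a log2 difference of 4.56 (95% interval 3.82 to 5.30, limma adjusted p 0.00168) and 1.27 at equal miRNA totals (0.0249). Of the pseudogenes with the most reads, AT1G43750 and AT1G43740 had 237 and 240 and 230 and 236 reads in ein5 dcl4 dcl2, against 3501 and 2588 and 3249 and 2247 in Col-0. On the deposited scale their log2 differences were -0.61 and -0.49 and those of AT3G43730 and AT5G31927 -0.37 and -0.30, none called, and with equal miRNA totals all 4 were lower. Of the 76 lower pseudogenes 52 have more than 20% repeated 21-mers, and 45 had 0 reads in ein5 dcl4 dcl2 with a Col-0 mean, in deposited units, below the limit that a count of 0 allows.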

How the data were processed

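Per the file headers the deposited values are TPM, but the columns do not sum to 1000000, so they were treated as a signal with its own deposited unit; each column is the authors' mean of 2 libraries. Bowtie 1.2.2, SAMtools 1.9, DESeq2 and the build TAIR10 are named, with no role or order, per the submitters' processing notes, and read 1 of the pairs was the one kept, per the labels. Not given in the sources used here are read lengths, strand and how reads with several matches were treated. The authors' own comparisons, none of which sets ein5 dcl4 dcl2 against Col-0, were not used, and 0 columns of per-sample values were left out.

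Each deposited mean could be taken apart into whole reads of 2 libraries (100% of values above 0, relative tolerance 1e-14), called a and b because nothing ties them to replicate numbers. They held 1102996 and 843408 reads in ein5 dcl4 dcl2, 1292727 and 836879 in ein5 dcl4 and 1217707 and 957043 in Col-0. Reads that match several loci appear to be counted at each, since MIR395b, MIR395c and MIR395f had equal reads in every library. These totals can thus exceed the number of reads sequenced. A read was worth 1.71 and 1.90 units in ein5 dcl4 dcl2 and 0.185 and 0.257 in Col-0, so 3 reads, the most a count of 0 allows, came to 5.12 and 5.70 units in ein5 dcl4 dcl2 and 0.555 and 0.770 in Col-0; limits and counting intervals (95%, Clopper-Pearson) cover counting error only. Both libraries of each genotype differed by more than counting error (chi-square per degree of freedom 5.82 in ein5 dcl4 dcl2, 5.26 in ein5 dcl4 and 3.18 in Col-0). The design text calls the replicates biological.

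Loci were fitted with limma 3.58.1 in R 4.3.3 (lmFit, eBayes with trend) on log2(value + 1), all 6 libraries in 1 fit with a mean per genotype, for loci with at least 10 reads over the 4 libraries compared; this scale understates changes of low loci. The fit had 3 residual and 2.87 prior degrees of freedom, calls are two-sided at a Benjamini-Hochberg adjusted p under 0.05 over all loci tested, and it was tested on simulated reads. It was repeated with equal table totals, equal miRNA totals and a mean of log2 ratios trimmed by 30% at each end. Classes, names, repeated 21-mers and mature miRNAs come from RefSeq TAIR10.1, matched by locus tag for 31722 loci. Named loci were the 10 largest increases and decreases called in all 4 scalings with a mean of at least 10 units and no overlap, the members with at least 10 reads of the siRNA, trigger and DCL4 lists, the mutated genes, up to 4 members with the most reads of every other list, and the 5 loci with the largest share in each genotype; AFB2 and AT3G23690 were named after their values were seen. The lists, the families and the comparison were chosen with earlier results of these data known. Other filters, pseudocounts, voom, a fit of 4 libraries only, single libraries left out and repeated loci left out were tried.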

Additional observations from a re-analysis of the deposited data

How the results depend on the processing

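With the 10 largest loci left out, the mean shares of the table total in ein5 dcl4 dcl2 were 76.1% for miRNA loci, 9.09% for protein-coding genes and 14.1% for pseudogenes, and in Col-0 23.2%, 35.3% and 40.0%. With shared mature sequences counted once the shares of these classes were 93.1%, 2.62% and 4.07% in ein5 dcl4 dcl2 and 54.1%, 21.1% and 23.9% in Col-0. With repeated loci left out they were 98.3%, 0.973% and 0.649% in ein5 dcl4 dcl2 and 88.0%, 5.25% and 5.79% in Col-0. Each direction for these 3 classes was as reported.

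Calls among all loci numbered 62 higher and 3793 lower with equal table totals, 13 and 2716 with equal miRNA totals, 97 lower after trimmed-mean rescaling, 661 higher with voom, 123 and 34 with a mean of at least 1 unit, 109 and 25 with no filter, 360 and 404 in a fit of the 4 libraries only, 91 lower with repeated loci left out, and 78 lower when loci under the limit of a 0 count were not counted, a setting chosen after seeing the data. Calls in all 4 scalings numbered 34 higher with voom, 4 higher and 28 lower with a mean of at least 1 unit, 4 and 21 with no filter, 7 higher with a minimum of 50 reads, 36 and 272 in the fit of 4 libraries, and 61 lower with a pseudocount of 5. miRNA loci had 39 higher and 8 lower with equal table totals and 9 and 15 with equal miRNA totals. Protein-coding genes had 20 and 1019 with equal table totals, 2 and 677 with equal miRNA totals, 44 lower after trimmed-mean rescaling, 301 higher with voom, 37 and 27 with a mean of at least 1 unit, 29 and 22 with no filter, 45 higher with 50 reads, 192 lower in the fit of 4 libraries, and 42 lower above the limit of a 0 count. Pseudogenes had 3 and 2635 with equal table totals, 2 and 1931 with equal miRNA totals, 50 lower after trimmed-mean rescaling, 56 higher with a pseudocount of 5, 217 higher with voom, 14 and 4 with a mean of at least 1 unit, 7 and 1 with no filter, 112 and 196 in the fit of 4 libraries, 34 lower with repeated loci left out, and 31 lower above the limit of a 0 count. PPR genes had 3 lower members with repeated loci left out. Photosynthesis genes had 0 higher and 4 lower with equal table totals, 0 and 5 with equal miRNA totals, and 2, 2, 3 and 2 higher with a mean of at least 1 unit, no filter, 50 reads and repeated loci left out. The cause of these shifts was not tested.

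With each of the 4 libraries left out in turn, where the lone library is assumed to vary like the other groups, loci higher ran from 46 to 234 and lower from 154 to 250; in all 4 scalings, higher from 3 to 12 and lower from 150 to 222. PPR genes lower ran from 9 to 17, miRNA loci higher from 31 to 75 and lower from 0 to 1, photosynthesis genes higher from 1 to 4, protein-coding genes higher from 11 to 100 and lower from 68 to 88, and pseudogenes higher from 3 to 56 and lower from 83 to 151.

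Log2 differences changed sign at equal miRNA totals for NIA1 (-0.019), NIA2 (-0.12), MIR173 (-0.84), MIR390a (-0.51), MIR390b (-0.30), AFB3 (-2.46), AGO2 (-1.44), RBCS1A (-1.90), CAB1 (-1.58), CAB2 (-1.26), CAB3 (-1.69), MIR159b (-0.33), MIR161 (-1.06), MIR447a and MIR447b (-0.33 each), MIR165b (-0.16), ATCG00020 (-0.31), ATCG00490 (-1.03) and ATCG00350 (-0.70). They changed sign at equal table totals for MIR173 (-0.32), MIR390a (-0.0090), AFB3 (-1.98), AGO2 (-0.98), RBCS1A (-1.52), CAB1 (-1.19), CAB2 (-0.91), CAB3 (-1.39), MIR161 (-0.53), ATCG00490 (-0.53) and ATCG00350 (-0.23). None of the following was called on the deposited scale, and each turned positive: after trimmed-mean rescaling MYB113 (0.17), AT5G38850 (0.22), AT5G43730 (0.073), AGO1 (0.029) and SCL27 (0.017); with voom MYB113 (0.12); and in some of the fits without 1 library, which ran from -0.13 to 0.018 for AT5G38850, -0.69 to 0.56 for MYB113, -0.97 to 0.51 for AGO1, -0.72 to 0.27 for SCL27, -0.46 to 0.070 for AT5G43730, -1.31 to 0.13 for MIR857 and -2.03 to 0.11 for ARF3.

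No paired analysis was possible because the recovered libraries a and b cannot be tied to replicate numbers. Depth was similar between genotypes: 3 reads were 0.000272% and 0.000356% of the table total in the ein5 dcl4 dcl2 libraries and 0.000246% and 0.000313% in the Col-0 libraries, but 5.41 and 0.663 deposited units in ein5 dcl4 dcl2 and Col-0.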
